A study of Drosophila melanogaster with 12 samples.

Results

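The proteasome genes of the fruit fly were followed in brain RNA from 4 groups of male flies. They were taken by name, as every gene symbol in the count table that begins with Rpn or Rpt and a digit, or with Prosalpha or Prosbeta. The rule found 47 of the 17562 genes in the table, and all 47 were matched to a FlyBase gene. Of these, 32 are the subunits of the common 26S proteasome and 15 are paralogs, relatives whose symbol adds an R or a T to that of a subunit. All 32 subunits and 3 of the paralogs passed the filter on low counts and were tested, and the other 12 members, all paralogs, were not.

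Every fly carried the driver the labels call DaGS, the usual short form of daughterless-GeneSwitch, which is active in most tissues and turns on its targets when the fly eats RU486, and every group was fed RU486 for 6 days at 25 °C after collection within 1 to 2 days of eclosion. The groups were TDP-43 (line 52s) with Atx2 RNAi (hairpin stock BL44012), TDP-43 with mCherry RNAi (stock BL35785), control with Atx2 RNAi, and control with mCherry RNAi, with 3 biological replicates each. TDP-43 binds RNA and forms aggregates in the neurons of patients with motor neuron disease, and Atx2 is the fly ataxin-2 gene. The mCherry hairpin has no target in flies and serves as the control hairpin. The groups named control carry the driver and a hairpin but no TDP-43. Since 1 transgenic line and 1 stock per hairpin were used, the transgene and the genetic background of its line cannot be told apart, nor can a hairpin and the background of its stock.

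The 26S proteasome degrades proteins tagged with ubiquitin. Its 20S core is a barrel of outer alpha rings, which form the gate, and inner beta rings, which hold the proteolytic sites. The 19S regulatory particle caps the barrel: its base carries the Rpt ATPases that unfold substrates, and its lid removes the ubiquitin chain. Neurons are long-lived cells that rely on this machinery to clear damaged and aggregation-prone proteins, and in flies and mammals the subunit genes are induced together by a Cap'n'collar (Nrf) family factor when the proteasome is inhibited.

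Libraries held 29184618 to 45104293 counts. Levels are given in CPM, counts relative to the library's total after TMM scaling (trimmed means of log ratios between libraries), as mean ± SD over n = 3 libraries. A gene is said to have risen, fallen or been called where edgeR's quasi-likelihood test gave a Benjamini-Hochberg adjusted p under 0.05 over the 10738 genes tested, and such values are written as edgeR adjusted p. Atx2, the target of its hairpin, averaged 154 CPM with Atx2 RNAi and 287 CPM with mCherry RNAi in TDP-43 flies, and 160 CPM with Atx2 RNAi and 350 CPM with mCherry RNAi in control flies. TBPH, the fly's own TDP-43 gene, was lower in TDP-43 flies, at 78.9 against 141 CPM with Atx2 RNAi and 68.6 against 136 CPM with mCherry RNAi. The summed neuron markers ran from 6510 to 7438 CPM over all libraries, and the male-specific roX genes from 4294 to 5611 CPM. Replicates of each group differed by more than sampling noise, so that none was counted as a repeat of another.

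Per kilobase of annotated exon, so that genes can be set side by side, the 32 subunit transcripts lay within a 2.93-fold range of mean levels over the 12 libraries. Prosbeta5, whose yeast counterpart carries the chymotrypsin-like site, was highest at 63.5 CPM per kilobase. It was followed by Rpt1, an ATPase of the base, at 53.0 and by Prosalpha1, a subunit of the outer ring, at 46.8 CPM per kilobase. Rpn2, a large scaffold of the base, stood near the bottom at 24.5, above the ring subunits Prosalpha4 at 23.4 and Prosalpha6 at 21.7 CPM per kilobase. The order in between is loose: of the 31 pairs of neighbours in it, only Prosbeta5 and Rpt1 did not overlap over the 12 libraries. By part of the complex, the median level was 36.6 CPM per kilobase for the 10 base genes, with Rpn10 among them, 28.1 for the 8 lid genes, 37.1 for the 7 alpha ring genes and 31.9 for the 7 beta ring genes.

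**Figure D1:**
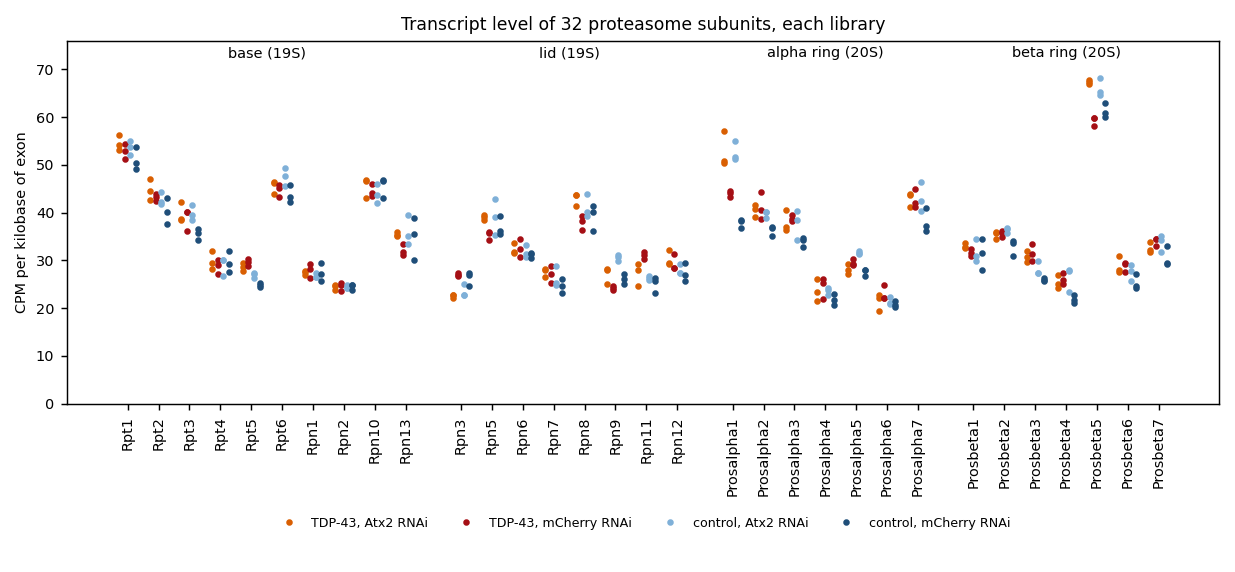
Level of each of the 32 proteasome subunits in CPM per kilobase of exon (y axis, linear from 0), with 1 point per library, coloured by group and grouped by part of the complex. Prosbeta5 stands above the rest at a mean of 63.5, and Prosalpha1 spans the widest range, 1.55-fold between its lowest and highest library.

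Each subunit was steady from library to library. The ratio of the highest to the lowest of the 12 libraries was 1.07 for Rpn2, had a median of 1.24 and reached 1.55 for Prosalpha1. The median SD within a group was 0.0671 on the log2 scale for the 32 subunits, against 0.126 for all genes tested. The genes tested reach down to low counts and were not matched to the subunits for level. The lower SD is thus not shown to be a trait of the subunits. The differences described below are therefore small in size and were measured against a small spread.

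With the control hairpin, 9 of the 35 members tested rose with TDP-43 and 0 fell, 25.7% against 19.2% of all genes tested that rose and 18.3% that fell (37.6% either way). The median log2 change was 0.10 for these members and 0.03 for all genes tested, and the share that rose was near that of the whole table. Among the 32 subunits 7 rose, by 0.18 to 0.31 on the log2 scale: 2 of 18 in the regulatory particle and 5 of 14 in the core. The median log2 change was 0.04 over the regulatory particle and 0.16 over the core, and 13 of the 14 core estimates were above 0. The estimates share libraries and the subunits tended to vary together. Counts of signs, here and below, are therefore not independent and are a description without a test. In 14 members every TDP-43 library lay above every control library, and in 2 every one lay below, against 24.7% and 21.8% of all genes tested. In bulk brain RNA, a change in the share of a cell type and a change of RNA per cell cannot be told apart.

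Rpt5 (3R:23752876-23754623, plus strand), an ATPase of the base, held 49.2, 48.2 and 47.0 CPM in TDP-43 flies and 41.2, 39.6 and 40.5 CPM in control flies, both with mCherry RNAi. Every TDP-43 library was above every control library, and the log2 fold change was 0.25 ± 0.04 (SE; edgeR adjusted p = 9.83e-04). Rpn11 (2L:5058404-5059790, minus strand), the lid metalloprotease that cuts ubiquitin chains off substrates, held 36.5, 37.6 and 38.5 CPM in TDP-43 flies, against 31.8, 28.1 and 31.0 CPM in control flies. The groups did not overlap, and the log2 fold change of 0.31 ± 0.07 (edgeR adjusted p = 0.00399) was the highest estimate among the 32 subunits here. The other 5 base ATPases and the other 7 lid genes were not called. Rpn13, a ubiquitin receptor and the lowest of the subunit estimates, averaged 53.8 ± 2.01 CPM in TDP-43 flies and 58.2 ± 7.39 CPM in control flies (log2 fold change -0.11 ± 0.09, edgeR adjusted p = 0.328).

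In the outer ring, whose subunits gate the core, all 7 estimates were positive and 3 were called. Prosalpha1 (2R:7827303-7828678, minus strand) held 41.9, 43.1 and 42.7 CPM in TDP-43 flies and 37.0, 35.7 and 37.3 CPM in control flies, with no overlap and a log2 fold change of 0.22 ± 0.06 (edgeR adjusted p = 0.0102). Prosalpha2 (3R:12431321-12432556) averaged 37.9 ± 2.63 CPM in TDP-43 flies and 33.4 ± 0.939 CPM in control flies (log2 fold change 0.18 ± 0.06, edgeR adjusted p = 0.0244). Prosalpha3 (2R:20994900-20996118) averaged 37.8 ± 0.645 CPM in TDP-43 flies and 33.0 ± 0.991 CPM in control flies (log2 fold change 0.19 ± 0.07, edgeR adjusted p = 0.0355). In the inner ring, Prosbeta3 and Prosbeta4, subunits without an active site, rose. Prosbeta3 (3R:9005313-9006226) held 30.5, 27.3 and 28.6 CPM in TDP-43 flies and 23.5, 23.7 and 24.0 CPM in control flies, and the groups did not overlap (log2 fold change 0.28 ± 0.06, edgeR adjusted p = 0.00335). Prosbeta4 (2L:16731180-16732133) averaged 21.3 ± 0.928 CPM in TDP-43 flies and 17.8 ± 0.711 CPM in control flies (log2 fold change 0.26 ± 0.08, edgeR adjusted p = 0.0239). None of Prosbeta1, Prosbeta2 and Prosbeta5, the counterparts of the catalytic subunits of yeast, was called. Prosbeta2, the counterpart of the yeast subunit with the trypsin-like site, had a log2 fold change of 0.12 ± 0.05 (edgeR adjusted p = 0.0831), and Prosbeta6 and Prosbeta7 had adjusted p-values of 0.0613 and 0.0679.

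The calls of Rpt5, Rpn11 and Prosbeta3 held with each of the 6 libraries left out in turn, with edgeR adjusted p-values of at most 0.00633, 0.0221 and 0.0143. That of Prosalpha1 was lost without TDP-43 replicate 2 (0.0544). That of Prosalpha2 was lost without control replicate 2 (0.102), control replicate 3 (0.0597) or TDP-43 replicate 3 (0.14), and that of Prosbeta4 without control replicate 1 (0.0661) or 3 (0.0934) or TDP-43 replicate 1 (0.0847) or 2 (0.0682). Prosalpha3 was not called without any 1 of the 6 libraries, with an edgeR adjusted p of 0.0592 to 0.114. Without the filter on low counts Prosalpha2 (0.0521) and Prosalpha3 (0.0542) were not called, nor was Prosalpha2 in a fit of only these 6 libraries (0.0886). Without control replicate 1, Prosalpha7 (0.0381), Prosbeta6 (0.0338) and Prosbeta7 (0.0202) were also called higher, and without control replicate 2 Rpn13 was called lower (log2 fold change -0.21, edgeR adjusted p = 0.0469). The number of members called was 4 without control replicate 3 and 5 without TDP-43 replicate 2 or 3. Over all genes, 3834 were called without control replicate 3, 3681 without TDP-43 replicate 2 and 3243 without TDP-43 replicate 3. With all libraries 4035 were called. The tissue markers moved in the same comparison. With mCherry RNAi, the 7 fat body markers summed to 2823 to 10640 CPM in TDP-43 libraries and 1397 to 2819 CPM in control libraries, and the 8 muscle markers to 180.9 to 627.8 CPM in TDP-43 libraries and 113.3 to 251.1 CPM in control libraries. The 10 gut markers summed to 2.86 to 631.3 CPM in TDP-43 libraries and 0.232 to 0.637 CPM in control libraries, with 4 of them at 3 counts or fewer in every TDP-43 library. The top of that range was TDP-43 replicate 2, where Jon65Aiii held 248 CPM, against 1.01 and 4.54 CPM in replicates 1 and 3. The 6 neuron markers summed to 6510 to 6749 CPM in TDP-43 libraries and 7086 to 7438 CPM in control libraries, and the 6 glia markers to 3062 to 3274 CPM in TDP-43 libraries and 3548 to 4013 CPM in control libraries. Of these lists only the muscle ranges overlapped.

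The sums did not stand for every marker. In the fat body list Yp1, Yp2 and Yp3, which encode yolk proteins, carried the difference (Yp1 averaged 2398 CPM in TDP-43 flies and 1.63 CPM in control flies), while the libraries of apolpp overlapped and Lsp2 averaged 30.9 CPM in TDP-43 flies and 102.9 CPM in control flies. In the neuron list 4 of the 6 means were lower with TDP-43, led by nSyb (1474 CPM in TDP-43 flies, 1863 CPM in control flies) and Rbp (560.1 CPM in TDP-43 flies, 810.8 CPM in control flies), and those of Syt1 and brp were higher. In the glia list 5 of the 6 means were lower, led by nrv2 (810.0 CPM in TDP-43 flies, 1155 CPM in control flies), and that of moody was higher, at 146.5 CPM in TDP-43 flies and 110.4 CPM in control flies. Their part in the proteasome values was not tested.

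**Figure D2:**
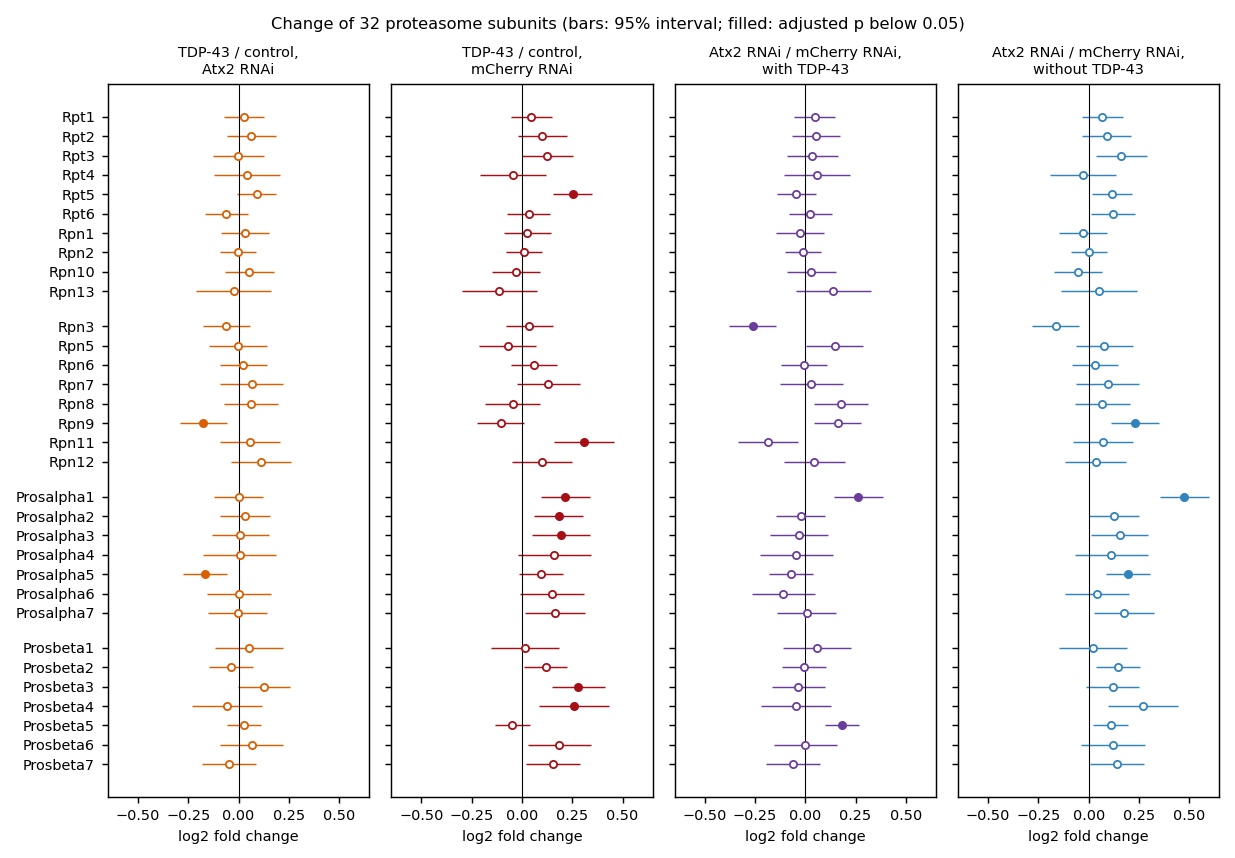
Log2 fold change of each of the 32 subunits in the 4 pairwise comparisons (x axis), with 95% intervals as bars and filled points where the edgeR adjusted p was under 0.05. From left to right, 2, 7, 3 and 3 points are filled, and all bars of the TDP-43 comparison with Atx2 RNAi lie within a 1.23-fold change.

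With Atx2 RNAi in both groups, none of the 35 members rose with TDP-43 and 2 fell, against 12.1% of all genes tested that rose and 10.4% that fell (22.5% either way). Prosalpha5 (2R:17412767-17413769), a subunit of the outer ring, held 27.6, 26.5 and 25.6 CPM in TDP-43 flies and 29.8, 30.3 and 29.5 CPM in control flies. Rpn9 (3R:23731375-23733462, minus strand), a scaffold of the lid, held 47.3, 42.2 and 46.9 CPM in TDP-43 flies, against 50.2, 52.3 and 51.7 CPM in control flies. In both genes every TDP-43 library was below every control library. Over the 35 members, 2 had all TDP-43 libraries above all control libraries and 2 had all below, against 21.9% and 22% of all genes tested. The log2 fold change was -0.17 ± 0.05 for Prosalpha5 (edgeR adjusted p = 0.0323) and -0.18 ± 0.05 for Rpn9 (edgeR adjusted p = 0.0354). Rpt5 averaged 46.6 ± 1.36 CPM in TDP-43 flies and 43.8 ± 0.969 CPM in control flies, and Prosbeta3 averaged 28.1 ± 1.03 CPM in TDP-43 flies and 25.8 ± 1.36 CPM in control flies, with edgeR adjusted p-values of 0.181 and 0.162. The 95% interval of each of the 32 subunits, taken singly and not adjusted for their number, excluded a change larger than 1.23-fold in either direction. The median log2 change was 0.02 for the 32 subunits and -0.01 for all genes tested.

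Both calls were near the threshold. That of Prosalpha5 was lost without control replicate 1, 2 or 3 or TDP-43 replicate 2 or 3 (edgeR adjusted p of 0.0778, 0.108, 0.0918, 0.105 and 0.106), and that of Rpn9 without control replicate 1, 2 or 3 or TDP-43 replicate 2 (0.0522, 0.117, 0.119 and 0.172). Both were lost with upper-quartile scaling, without the filter on low counts, and in a fit of only these 6 libraries. With Atx2 RNAi the fat body markers summed to 2389 to 5194 CPM in TDP-43 libraries and 1368 to 1607 CPM in control libraries. The muscle markers summed to 153.2 to 284.2 CPM in TDP-43 libraries and 72.3 to 131.5 CPM in control libraries, and the glia markers to 2844 to 2971 CPM in TDP-43 libraries and 3450 to 3466 CPM in control libraries. None of these ranges overlapped. The neuron markers, at 6548 to 6788 CPM in TDP-43 libraries and 6597 to 7047 CPM in control libraries, did overlap. So did the gut markers, at 0.463 to 305.2 CPM in TDP-43 libraries and 0.812 to 38.2 CPM in control libraries. The fat body sum again followed the yolk protein genes, with Yp1 at a mean of 906.1 CPM in TDP-43 flies and 4.68 CPM in control flies, while apolpp overlapped and Lsp2 and Fbp1 had lower means in TDP-43 flies. Of the 6 glia markers Gs2, nrv2 and alrm were lower in every TDP-43 library, and repo (142.6 CPM in TDP-43 flies, 113.0 CPM in control flies), moody and wrapper had higher means. Their part in these values was not tested.

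The effect of the Atx2 hairpin was read first in TDP-43 flies. There, 2 of the 35 members rose and 2 fell, against 7.68% and 6.36% of all genes tested (14% either way). The libraries did not overlap for 7 members that were higher and 3 that were lower, against 17.3% and 15.4% of all genes tested. Prosalpha1 held 55.3, 48.8 and 49.2 CPM with Atx2 RNAi and 41.9, 43.1 and 42.7 CPM with mCherry RNAi. Prosbeta5, the subunit of the chymotrypsin-like site, held 76.6, 77.2 and 76.2 CPM with Atx2 RNAi, against 68.2, 66.2 and 68.2 CPM with mCherry RNAi. In both, each Atx2 RNAi library was above each mCherry RNAi library, with log2 fold changes of 0.26 ± 0.06 for Prosalpha1 (edgeR adjusted p = 0.00940) and 0.18 ± 0.04 for Prosbeta5 (edgeR adjusted p = 0.00957). Rpn3 (2L:19051790-19053681, plus strand), a scaffold of the lid, held 41.6, 41.7 and 40.5 CPM with Atx2 RNAi and 49.4, 50.02 and 48.9 CPM with mCherry RNAi. Its libraries were all lower with Atx2 RNAi, and its log2 fold change was -0.26 ± 0.05 (edgeR adjusted p = 0.00782).

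The second gene that fell was Rpt6R, a paralog described further on. The lid genes Rpn9 and Rpn8 had log2 fold changes of 0.16 ± 0.05 and 0.18 ± 0.06 (edgeR adjusted p = 0.0696 and 0.0811), and Rpn11 one of -0.18 ± 0.07 (edgeR adjusted p = 0.0965). Rpn11 held 35.3, 33.9 and 29.9 CPM with Atx2 RNAi and 36.5, 37.6 and 38.5 CPM with mCherry RNAi, so that its groups did not overlap although it was not called. The calls of Prosalpha1 and Rpn3 held with each library left out. That of Prosbeta5 was lost without Atx2 RNAi replicate 2 (edgeR adjusted p = 0.0575), and Rpn9 was called without that same library (0.0435). In TDP-43 flies the glia markers summed to 2844 to 2971 CPM with Atx2 RNAi and 3062 to 3274 CPM with mCherry RNAi, and the fat body markers to 2389 to 5194 CPM with Atx2 RNAi and 2823 to 10640 CPM with mCherry RNAi, which overlapped. The sums of the neuron, muscle and gut markers overlapped there as well. The glia sum followed Gs2, which averaged 1402 CPM with Atx2 RNAi and 1699 CPM with mCherry RNAi, whereas repo and wrapper were higher in every Atx2 RNAi library and nrv2 had a higher mean. Their part in these values was not tested.

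In control flies, 3 of the 35 members rose with Atx2 RNAi and 0 fell, against 3.24% and 2.93% of all genes tested (6.17% either way). The libraries did not overlap for 11 members that were higher and 1 that was lower, against 14% and 11.7% of all genes tested. Prosalpha1 held 50.1, 49.7 and 53.2 CPM with Atx2 RNAi and 37.0, 35.7 and 37.3 CPM with mCherry RNAi. Each Atx2 RNAi library was above each mCherry RNAi library, and the log2 fold change of 0.48 ± 0.06 (edgeR adjusted p = 4.43e-04) was the largest of any subunit in the 4 pairwise comparisons. Rpn9 averaged 51.4 ± 1.10 CPM with Atx2 RNAi and 43.8 ± 1.61 CPM with mCherry RNAi (log2 fold change 0.23 ± 0.05, edgeR adjusted p = 0.0272). Prosalpha5 averaged 29.9 ± 0.368 CPM with Atx2 RNAi and 26.1 ± 0.713 CPM with mCherry RNAi (log2 fold change 0.20 ± 0.05, edgeR adjusted p = 0.0419). Prosbeta4 had a log2 fold change of 0.27 ± 0.08 (edgeR adjusted p = 0.0720) and Rpn3 one of -0.16 ± 0.05 (edgeR adjusted p = 0.105), which DESeq2 called lower (adjusted p = 0.0441). Of the 32 subunits, 28 had an estimate above 0, with a median of 0.10 against 0.00 for all genes tested.

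Only the call of Prosalpha1 held in control flies with each library left out. Rpn9 lost its call without mCherry RNAi replicate 2 or 3 or Atx2 RNAi replicate 1, 2 or 3 (edgeR adjusted p of 0.0638 to 0.125), and Prosalpha5 without any 1 of the 6 libraries (0.0823 to 0.166). Prosalpha5 was also lost with the size factors of DESeq2 (0.0506), without the filter on low counts (0.120) and in a fit of only these 6 libraries (0.0984). Prosbeta4 was called without Atx2 RNAi replicate 2 (0.0369). The number of members called was 1 without mCherry RNAi replicate 2 or 3 or Atx2 RNAi replicate 1 or 3. Over all genes, 371 and 483 were called without mCherry RNAi replicate 2 and 3. Without Atx2 RNAi replicate 1 and 3 the numbers were 282 and 327, and with all libraries 663. In control flies the neuron markers summed to 6597 to 7047 CPM with Atx2 RNAi and 7086 to 7438 CPM with mCherry RNAi, and the glia markers to 3450 to 3466 CPM with Atx2 RNAi and 3548 to 4013 CPM with mCherry RNAi, neither with an overlap. The fat body markers, at 1368 to 1607 CPM with Atx2 RNAi and 1397 to 2819 CPM with mCherry RNAi, overlapped. So did the muscle markers, at 72.3 to 131.5 CPM with Atx2 RNAi and 113.3 to 251.1 CPM with mCherry RNAi. The gut markers did not, at 0.812 to 38.2 CPM with Atx2 RNAi and 0.232 to 0.637 CPM with mCherry RNAi. Means were lower with Atx2 RNAi for 4 of the 6 neuron markers, Rbp and elav being the exceptions, and for 5 of the 6 glia markers, alrm being the exception. Their part in these values was not tested.

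**Figure D3:**
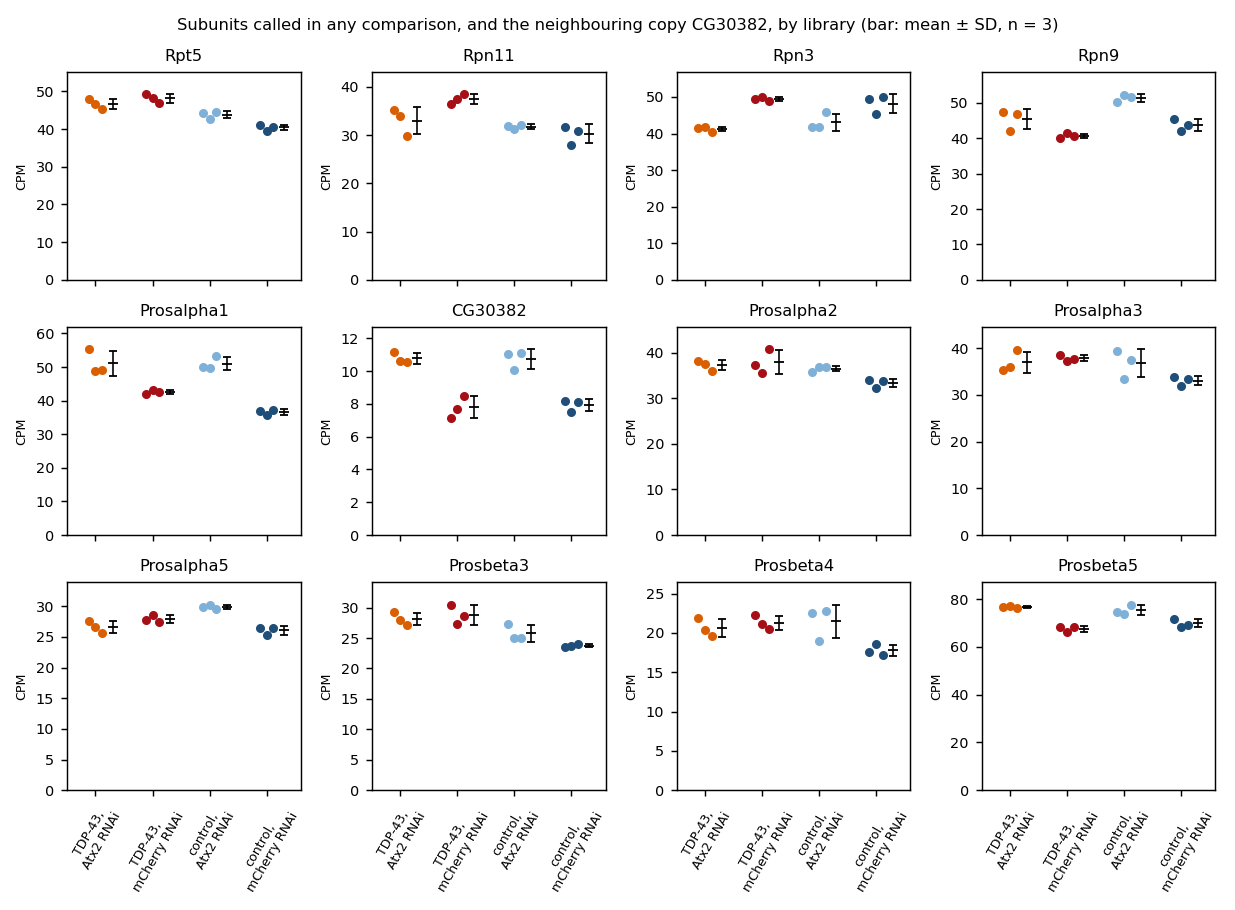
Level in CPM (y axis, linear from 0) of each subunit called in any pairwise comparison, and of CG30382 beside Prosalpha1, with 1 point per library and the mean ± SD of 3 libraries as a bar. The 6 Atx2 RNAi libraries stand above the 6 mCherry RNAi libraries for Prosalpha1 and CG30382, and the control libraries with mCherry RNAi are lowest for Rpt5, Prosalpha2 and Prosbeta3.

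By edgeR, Prosalpha1 was the only subunit called with the Atx2 hairpin both with and without TDP-43, in comparisons that share no library. Its neighbours on chromosome arm 2R were examined after its values had been seen. CG30382 (2R:7830413-7831771), whose current annotation name is Prosalpha1R and which the symbol rule therefore missed in this table, lies 1734 bases from Prosalpha1. In TDP-43 flies it held 11.1, 10.6 and 10.6 CPM with Atx2 RNAi and 7.16, 7.70 and 8.49 CPM with mCherry RNAi (log2 fold change 0.47 ± 0.09, edgeR adjusted p = 0.00584). In control flies it held 11.1, 10.1 and 11.1 CPM with Atx2 RNAi and 8.19, 7.50 and 8.11 CPM with mCherry RNAi (log2 fold change 0.44 ± 0.09, edgeR adjusted p = 0.0155), a call lost without mCherry RNAi replicate 2 (0.0655) or Atx2 RNAi replicate 1 (0.0688) or 3 (0.0728). The rule for counting reads that match both copies, not given in the sources used here, is unknown, so the share of each copy is uncertain.

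The gene phr, a DNA photolyase on the opposite strand that shares 17 exon bases with Prosalpha1, rose with the hairpin as well. It held 57.5, 61.5 and 62.6 CPM with Atx2 RNAi and 38.1, 33.3 and 32.4 CPM with mCherry RNAi in TDP-43 flies (log2 fold change 0.81, edgeR adjusted p = 6.72e-05). In control flies it held 57.4, 57.4 and 62.5 CPM with Atx2 RNAi and 30.3, 33.4 and 28.8 CPM with mCherry RNAi (log2 fold change 0.94, edgeR adjusted p = 2.86e-05). Of the 7 tested genes within 10 kb of Prosalpha1, 3 rose with Atx2 RNAi in TDP-43 flies and 2 in control flies, and 0 fell in either. Over all genes tested, 7.68% rose and 6.36% fell in TDP-43 flies, and 3.24% and 2.93% in control flies. None of the 10 tested genes within 10 kb of Prosbeta5 rose in TDP-43 flies, and 1 fell. There, 1 of the 7 near Rpn3 rose and 0 fell, and 0 of the 3 near Rpt6R were called. Of those 3, CG9717, 322 bases from Rpt6R, had an imprecise log2 fold change of -1.40 ± 0.92 (edgeR adjusted p = 0.357), against -1.355 for Rpt6R. The estimates of tmod and CG2246 were 0.13 and -0.05. In control flies 0 of the 4 near Rpn9 rose and 1 fell, and 0 of the 4 near Prosalpha5 were called. The hairpin and the background of its stock cannot be told apart here. Rpn9 shares 125 exon bases with CG10365 on the opposite strand, which moved the other way, with a log2 fold change of 0.47 with TDP-43 under Atx2 RNAi and -0.37 with the Atx2 hairpin in control flies. In all, 14 members share exon bases with a gene on the opposite strand, at most 182 bases (13% of Rpt6, with CG1801), and the counting may or may not have used strand (not given in the sources used here).

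Whether the effect of TDP-43 differed between the hairpins was tested as an interaction. None of the 35 members was called, against 0.428% of all genes tested. DESeq2 also called 0 members, with 426 called over all genes tested. Prosalpha5 had the smallest adjusted p, with a log2 interaction of -0.26 ± 0.07 (edgeR adjusted p = 0.120), where a negative value means a lower TDP-43 effect with Atx2 RNAi than with mCherry RNAi. Prosbeta4 followed at -0.32 ± 0.11 (edgeR adjusted p = 0.216) and Prosalpha1 at -0.21 ± 0.08 (edgeR adjusted p = 0.227). All 7 estimates of the outer ring were below 0, with a median of -0.17, while the regulatory particle had a median of -0.03 and all genes tested one of -0.02. A difference between the hairpins in the effect of TDP-43 was therefore not shown for any member, and the intervals reach a 1.48-fold difference for Prosbeta4. The pairwise comparisons that share a group are not independent of each other or of this test.

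The summed level of the base and of the lid varied little between groups, with group means of 633 to 662 CPM and 375 to 391 CPM. The rings differed more, relative to their level. The 7 outer ring genes summed to 245 ± 5.34 CPM in TDP-43 flies with Atx2 RNAi, 241 ± 6.43 in TDP-43 flies with mCherry RNAi, 247 ± 7.01 in control flies with Atx2 RNAi and 214 ± 6.66 in control flies with mCherry RNAi. The 3 libraries of the last group, at 206.9 to 219.9 CPM, lay below all 9 others, which ran from 234.1 to 250.9 CPM. A large part of its difference from control flies with Atx2 RNAi came from Prosalpha1. That gene held 50.1, 49.7 and 53.2 CPM with Atx2 RNAi and 37.0, 35.7 and 37.3 CPM with mCherry RNAi. All 7 outer ring estimates were above 0 in that comparison. The 7 inner ring genes summed to 257 ± 2.16 CPM in TDP-43 flies with Atx2 RNAi, 249.9 ± 4.57 in TDP-43 flies with mCherry RNAi, 254 ± 8.86 in control flies with Atx2 RNAi and 233 ± 9.19 in control flies with mCherry RNAi. All 32 genes together made up 0.141% to 0.161% of the counts of a library. Under mCherry RNAi their sum was 1523 ± 4.55 CPM in TDP-43 flies and 1455 ± 55.6 CPM in control flies, and the highest of those control libraries, at 1514.5 CPM, nearly reached the lowest TDP-43 library, at 1517.8 CPM. With Atx2 RNAi the sum was 1554 ± 13.5 CPM in TDP-43 flies and 1544 ± 40.2 CPM in control flies, and the groups overlapped.

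**Figure D4:**
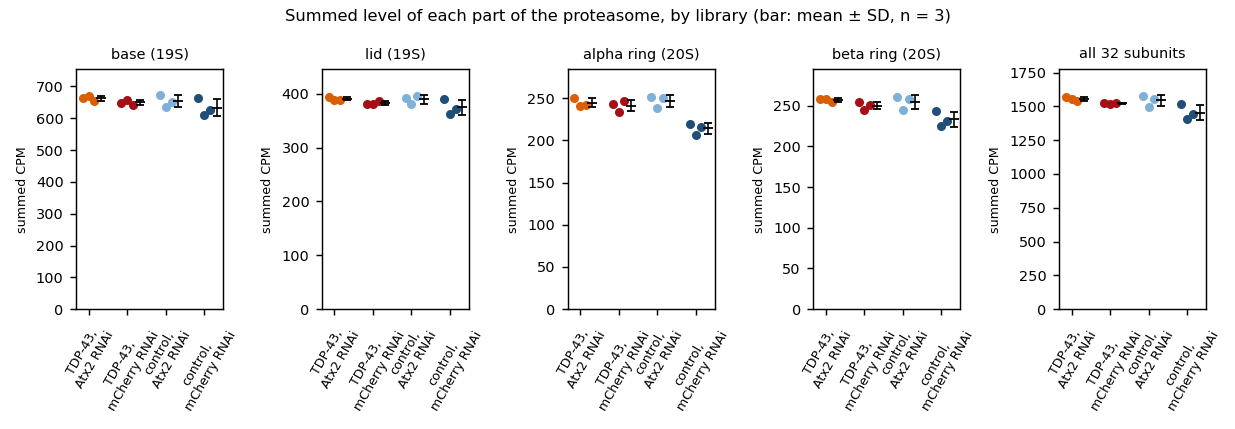
Summed CPM of the subunit genes of each part of the proteasome (y axes, linear from 0), with 1 point per library and the mean ± SD of 3 libraries as a bar. The base and lid sums differ least between groups, and for the alpha ring the 3 control libraries with mCherry RNAi lie at 206.9 to 219.9, below the other 9.

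Several of the 15 paralogs are known from the testis in flies. The 12 that were not tested had at most 9 counts in any library, while Rpn13R, Rpt3R and Rpt6R, the 3 tested, had counts in all 12. The floor of 3 counts equals 0.0645 to 0.104 CPM per library and covers counting error only. Prosalpha4T1, Prosbeta4R2 and Rpt4R had 0 counts in every library, and of the 12 untested paralogs the highest total over the 12 libraries was 31 counts. Rpt6R (3R:30582198-30583697), the relative of the ATPase Rpt6, had 10, 18 and 7 counts in TDP-43 flies with Atx2 RNAi and 36, 23 and 31 in TDP-43 flies with mCherry RNAi. It had 8, 6 and 8 counts in control flies with Atx2 RNAi and 10, 9 and 10 in control flies with mCherry RNAi. The TDP-43 libraries with mCherry RNAi were thus above the other 9, and Rpt6R rose with TDP-43 by 1.41 ± 0.38 on the log2 scale with mCherry RNAi (edgeR adjusted p = 0.0120). It fell by 1.35 ± 0.37 on the log2 scale with Atx2 RNAi in TDP-43 flies (edgeR adjusted p = 0.0327), a comparison that uses the same TDP-43 libraries.

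Rpt3R (3R:9754735-9756510), the relative of Rpt3, rose with TDP-43 under mCherry RNAi, with 31, 23 and 29 counts in TDP-43 flies and 11, 13 and 8 in control flies (log2 fold change 1.14 ± 0.38, edgeR adjusted p = 0.0336). With Atx2 RNAi it had 27, 20 and 28 counts in TDP-43 flies and 23, 13 and 25 in control flies and was not called (log2 fold change 0.25 ± 0.37, edgeR adjusted p = 0.685). The calls of these low genes were not firm. With TDP-43 under mCherry RNAi, Rpt6R was lost without replicate 3 of either group (edgeR adjusted p = 0.0513 without that of control flies, 0.0526 without that of TDP-43 flies), and Rpt3R without control replicate 1 (0.0684) or 3 (0.129) or TDP-43 replicate 1 (0.0551), 2 (0.0697) or 3 (0.109). Rpt3R was also lost without the filter on low counts (0.0633) and in a fit of only these 6 libraries (0.0713). In TDP-43 flies, the fall of Rpt6R with Atx2 RNAi was lost without Atx2 RNAi replicate 1 (0.0964) or 3 (0.141) or mCherry RNAi replicate 1 (0.0658), 2 (0.0643) or 3 (0.116), without the filter on low counts (0.0742) and in a fit of only those groups (0.0845).

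Prosbeta4R1 (2L:2653046-2653926) was not tested because of its low counts. It had 7, 3 and 1 counts in TDP-43 flies with Atx2 RNAi and 9, 8 and 3 in TDP-43 flies with mCherry RNAi, against 0 counts in each of the 6 control libraries. The pattern was chosen after its values were seen and has no test. Rpn13R, with 10 to 50 counts per library, was not called in any comparison. The 13 testis markers summed to 5.47 to 7.20 CPM in TDP-43 libraries and 2.61 to 4.23 CPM in control libraries, with 8 to 9 of the 13 genes at 3 counts or fewer in every library of a TDP-43 group and 3 to 11 in those of a control group. Mst77F alone held most of each mean sum, with 5.66 CPM in TDP-43 flies and 2.30 CPM in control flies under mCherry RNAi, and 4.71 CPM in TDP-43 flies and 2.46 CPM in control flies under Atx2 RNAi. Under mCherry RNAi 9 of the 13 means, can and dj among them, were lower in TDP-43 flies. The part of these markers in the paralog counts was not tested.

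**Figure D5:**
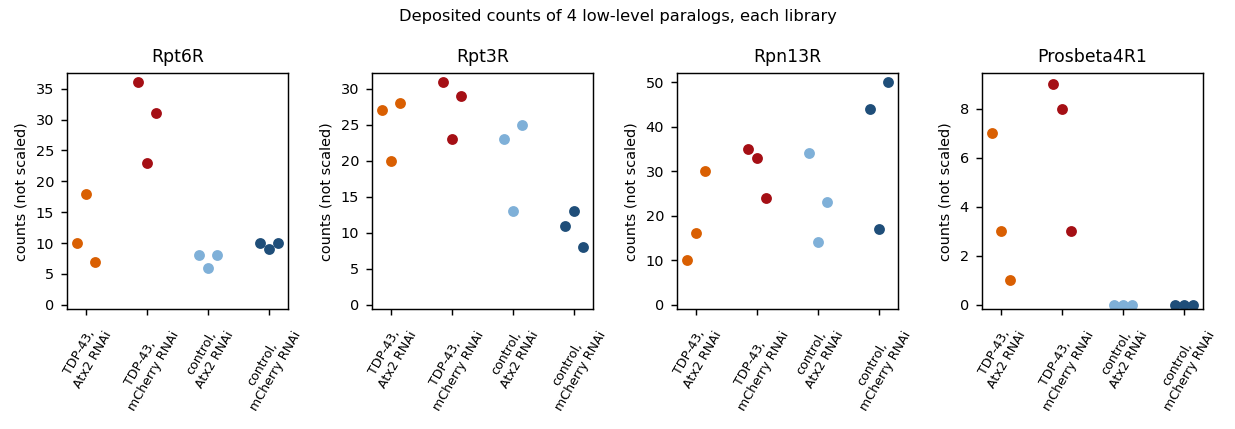
Deposited read counts, not scaled to library size, of 4 paralogs (y axes, linear), with 1 point per library in 4 groups. Rpt6R is highest in the 3 TDP-43 libraries with mCherry RNAi, at 23 to 36 counts, and Prosbeta4R1 is at 0 in all 6 control libraries.

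Genes that serve the proteasome without being matched by its names were followed as a list of 28, all tested. With TDP-43 under mCherry RNAi, 2 rose and 4 fell, against 19.2% and 18.3% of all genes tested (37.6% either way). Uch-L5, a deubiquitinase that docks on RPN13 in mammals, rose by 0.31 ± 0.08 on the log2 scale (15.6 ± 0.753 CPM in TDP-43 flies, 12.5 ± 0.677 CPM in control flies, edgeR adjusted p = 0.00846), and the shuttle factor Ubqn by 0.19 ± 0.06 (edgeR adjusted p = 0.0223). Uba1, the enzyme that activates ubiquitin, averaged 252 ± 2.25 CPM in TDP-43 flies and 288 ± 3.88 CPM in control flies (log2 fold change -0.19 ± 0.04, edgeR adjusted p = 0.00193). CG8858 (log2 fold change -0.31 ± 0.06, edgeR adjusted p = 0.00170), the polyubiquitin gene Ubi-p5E (-0.21 ± 0.06, edgeR adjusted p = 0.0159) and the conjugating enzyme eff (-0.13 ± 0.04, edgeR adjusted p = 0.0332) also fell. Uch-L5, Uba1 and CG8858 kept their calls with each library left out. Ubqn lost its call without control replicate 1 (0.0625) or 2 (0.0803) or TDP-43 replicate 3 (0.114). Ubi-p5E lost its call without control replicate 1 (0.0566), and eff without control replicate 1 (0.103) or TDP-43 replicate 1 (0.0624) or 2 (0.0616). In a fit of only these 6 libraries Ubi-p5E (0.0612) and eff (0.139) lost their calls, and eff also with upper-quartile scaling (0.0700).

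The transcription factor cnc, the Cap'n'collar gene, held 140, 192 and 199.6 CPM in TDP-43 flies and 147, 149 and 168 CPM in control flies with mCherry RNAi. Its groups overlapped through TDP-43 replicate 1, and it was not called (log2 fold change 0.20 ± 0.11, edgeR adjusted p = 0.179). Without that library its log2 fold change against control flies was 0.33 (edgeR adjusted p = 0.000606), and that of Atx2 RNAi against mCherry RNAi in TDP-43 flies was -0.32 (edgeR adjusted p = 0.00317), against -0.17 with all libraries (edgeR adjusted p = 0.323). Over TDP-43 replicates 1, 2 and 3 with mCherry RNAi, the fat body marker Yp1 held 844, 2615 and 3735 CPM. The muscle marker Mhc held 54.8, 158 and 187 CPM there, while the fat body marker Fbp1 ran the other way, at 0.581, 0.433 and 0.398 CPM. The part of these markers in the values of cnc was not tested. The partner of cnc, maf-S, had a log2 fold change of 0.14 ± 0.07 with TDP-43 under mCherry RNAi (edgeR adjusted p = 0.168). With Atx2 RNAi in control flies maf-S had one of 0.27 ± 0.07 (edgeR adjusted p = 0.0503), which passed without Atx2 RNAi replicate 2 (0.0419), with DESeq2 (0.0150), with upper-quartile scaling (0.0395) and in a fit of only these 6 libraries (0.0450).

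With Atx2 RNAi, 0 of the 28 partners rose with TDP-43 and 2 fell, against 12.1% and 10.4% of all genes tested: RpL40 (log2 fold change -0.32 ± 0.07, edgeR adjusted p = 0.00587) and RpS27A (-0.27 ± 0.08, edgeR adjusted p = 0.0315), both of which encode ubiquitin fused to a ribosomal protein. In control flies RpL40 held 539, 443 and 481 CPM with Atx2 RNAi and 360.5, 339.5 and 379 CPM with mCherry RNAi, and rose by 0.44 ± 0.07 on the log2 scale (edgeR adjusted p = 0.00336). Pomp, the chaperone that builds the inner ring, rose there by 0.25 ± 0.07 (edgeR adjusted p = 0.0445), and the polyubiquitin gene Ubi-p63E fell by 0.32 ± 0.07 (edgeR adjusted p = 0.0241), with 3.24% of all genes tested higher there and 2.93% lower. In TDP-43 flies, 0 partners rose with Atx2 RNAi and 2 fell, against 7.68% and 6.36% of all genes tested: the glycanase gene Pngl (log2 fold change -0.21 ± 0.06, edgeR adjusted p = 0.0286) and the shuttle factor Rad23 (-0.16 ± 0.05, edgeR adjusted p = 0.0479). Of these 6 genes RpL40 alone kept its call in both comparisons with each library left out. Those comparisons of RpL40 share the control libraries with Atx2 RNAi and are not independent. The highest edgeR adjusted p with 1 library left out was 0.119 for RpS27A (without control replicate 1), 0.218 for Pomp (without Atx2 RNAi replicate 3), 0.0915 for Ubi-p63E (without mCherry RNAi replicate 1), 0.110 for Pngl (without Atx2 RNAi replicate 2) and 0.155 for Rad23 (without mCherry RNAi replicate 3). In a fit of only the libraries compared, Pomp (0.0860), Pngl (0.0687) and Rad23 (0.113) lost their calls, as did Pomp (0.0613) and Rad23 (0.0760) without the filter on low counts and Rad23 with upper-quartile scaling (0.0817).

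Over the 12 libraries, the subunit transcripts tended to vary together within groups. After each group's mean was removed, the correlation of a subunit with the mean of the other 31 had a median of 0.459, against 0.0475 for the other genes tested with the mean of the 32. It was highest for Rpn13, at 0.859, and Prosalpha7, at 0.856, and below 0 for Rpn2, at -0.23, and Rpn7, at -0.154. The points are 12 libraries that share their scaling, and the values are a description without a test. Outside the rule, the genes whose level ran most like the mean of the tested members over the 12 libraries were CG11077 (Pearson's r of 0.932), COX7C (0.915), Nap1 (0.906), lncRNA:CR44619 (0.892) and CheB98a (0.892), likewise as a description.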

How the data were processed

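Brain RNA of 12 libraries in 4 groups was analysed. The authors deposited whole-number read counts per gene, not normalised, in 1 table. The build dm6 and the tools STAR 2.7.3a, Trim Galore, SAMtools and DESeq2 are named in the submitters' processing notes, and a stranded mRNA kit in the labels' protocols. The assignment of reads to genes and its strand setting are not given in the sources used here. FlyBase identifiers were found for 17495 of 17562 symbols. Positions and exon lengths come from the Ensembl annotation of the same assembly.

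Counts were filtered with filterByExpr (10738 genes left), scaled by TMM and tested in R 4.3.3 with edgeR 4.0.16, with 1 mean per group over all 12 libraries (8 residual degrees of freedom) and Benjamini-Hochberg adjustment over all genes tested. The SE of a log2 fold change is its size over the square root of F. Intervals are at 95%. The p-values measure the spread between libraries that the labels call biological replicates. DESeq2 1.42.0, other scalings, no filter, only the 2 groups of a comparison, a replicate block and leaving out each library were tried as alternatives. The steps were tested on simulated data.

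The members and lists were chosen with earlier results of these data known. Named with statistics are called members, up to 4 uncalled members with the smallest adjusted p and the 2 largest fold changes each way per comparison, called partners, and cnc, maf-S and Pomp. CG30382 and the neighbours of members were added after values were seen. Same-numbered libraries deviated together, by the correlation of their deviations from the group means, in 2 comparisons: the TDP-43 effect under Atx2 RNAi (0.246, 0.392 and 0.134) and the hairpin effect in TDP-43 flies (0.265, 0.602 and 0.159). The labels give no batch or date.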

Additional observations from a re-analysis of the deposited data

How the results depend on the processing

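With TDP-43 under mCherry RNAi, 6 to 13 of the members were called under the other scalings, filters and tools, and 4 to 9 with 1 library left out. Over all genes, 3835 to 4331 were called under the former and 3205 to 4261 under the latter. In a fit of only these groups, 7 members and 2853 genes in all were called. With TDP-43 under Atx2 RNAi, 0 members were called with upper-quartile scaling, 0 without the filter on low counts and 0 in a fit of only those groups, and 0 to 2 with 1 library left out. The calls over all genes were 2182, 2105 and 2782 in these fits, and 1616 to 1813 with 1 library left out. With the Atx2 hairpin, 3 to 4 members were called in TDP-43 flies and 1 to 2 in control flies with 1 library left out. The calls over all genes there were 731 to 1664 in TDP-43 flies and 282 to 483 in control flies. For the interaction the count of members was 0 under every alternative run, with 10 to 426 called over all genes. In the main fit the calls over all genes were 4035, 2413, 1508, 663 and 46, in the order above. No direction of a called member was reversed under the alternatives run. The cause of the lost calls was not tested.

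With the replicate block, 10 members were called for TDP-43 under mCherry RNAi and 2 under Atx2 RNAi, 4 for the hairpin in TDP-43 flies and 2 in control flies, and 0 for the interaction. In the same order, the block called 4258, 2540, 1718, 712 and 138 over all genes. In the 2 comparisons where the pairing was seen, the block changed no call of a member. Elsewhere same-numbered libraries did not all deviate together; there Rpt3R (edgeR adjusted p = 0.0534) and Prosalpha5 in control flies (0.0539) were not called with the block, and Prosalpha7 (0.0243), Prosbeta7 (0.0458), maf-S in control flies (0.0313) and Pomp with TDP-43 under mCherry RNAi (0.0410) were. The median SE of 0.06 (log2) for the 32 subunits limits how small a change can be seen, and for the paralogs the limit is their counts.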
